A study of Carthamus tinctorius with 15 samples.

Results

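Safflower (Carthamus tinctorius) is a spiny annual of the daisy family grown for seed oil, and the RNA of its stem was compared here with that of its leaf. Each organ had 3 RNA-seq libraries, numbered by the replicate in their titles. No treatment, cultivar, age or growth stage is given for stem, leaf, root or flower in the labels, and the groups differ in tissue alone as far as these go. Whether replicates were separate plants is not stated, so each p-value reflects only the spread between libraries, which may be technical. Genes entered the comparison when 3 or more of the 6 libraries reached 1 FPKM, which kept 19066 of the 33242 rows of the table (57.4%). FPKM is the number of reads of a gene divided by its length and by a library total, here of reads counted in the table. The 3 root and 3 flower libraries of the same table served as a second comparison on the same genes, and the seed libraries of the series were not analysed here.

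Leaf blades are built mostly of green mesophyll, which fixes carbon dioxide, and their most abundant messenger RNAs usually encode proteins of photosynthesis. Stems carry water and sugar through xylem and phloem, and they hold cells with thick lignified walls beside a green outer cortex. Both organs come from the shoot tip and share many cell types, in different proportions. The table names no genes, so none of these classes could be assigned to a row. Each gene is called by its row number in the table, with row 1 directly under the header, and by the length in bases that its values imply. For the same reason the tissue labels were not checked against marker genes. In libraries of whole organs, fewer cells of a type and less RNA per cell cannot be told apart.

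The 6 libraries were deep and alike within a tissue. Library totals recovered from the values ran from 28391416 to 30563169 reads in stem and from 30929338 to 31500664 in leaf. These totals are of reads counted in the table, and by them all leaf libraries were deeper than all stem libraries. Spearman correlations across the 19066 genes, which are not independent replicates, were 0.992 for each stem pair, 0.991 for each leaf pair and 0.815 to 0.818 between the tissues. The median replicate SD on the log2(FPKM + 1) scale was 0.087 in stem and 0.0876 in leaf. No stem or leaf library stood apart from its replicates: a value at least 2-fold above or below both others, at 10 FPKM or more, was seen for 6 to 14 genes per library. The gene just inside the rule of 1 FPKM, row 1600 (1130 bases), was at 0.468, 1.31 and 1.39 FPKM in stem and 1.001, 0.702 and 0.507 in leaf. The gene just outside, row 7641 (426 bases), was at 1.49, 0.324 and 0.998 in stem and 0.379, 0.522 and 1.12 in leaf.

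Stem and leaf differed in a large minority of genes. Calls needed a Benjamini-Hochberg adjusted p below 0.05 from limma together with means 1 or more apart on the log2(FPKM + 1) scale, which understates the change of low genes. By this rule 5219 of 19066 genes (27.4%) were called. Of these, 2862 (15%) were higher in stem and 2357 (12.4%) were higher in leaf. The size threshold set the count, since 5224 genes differed by at least 1 and only 5 of them missed the adjusted p. Another 8947 genes passed the adjusted p with a smaller difference, and the median SE was 0.0873. The libraries of the tissues did not overlap for 2857 of the genes called higher in stem and 2350 of those called higher in leaf, against 77.2% of all genes tested.

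Most differences were small, and the strongest lay on the leaf side. By the values as deposited, differences from 1 to 2 were found for 2177 genes higher in stem and 1636 higher in leaf. From 2 to 3 there were 481 and 464. Between 3 and 5 the order turned, with 187 stem genes and 223 leaf genes, and at 5 or more there were 17 and 34. This turn depended on the scaling, since after median-ratio scaling leaf led already from 1 to 2. The median size was 1.47 among genes higher in stem and 1.63 among genes higher in leaf. The scatter of mean levels shows the wider reach below the diagonal.

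**Figure D1:**
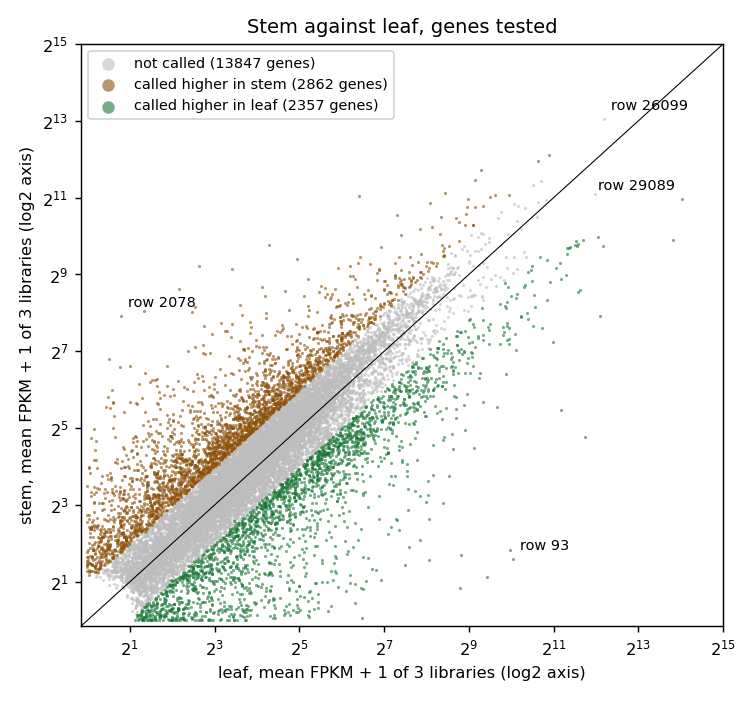
Mean FPKM + 1 of the 3 stem libraries (vertical, log2 axis) against that of the 3 leaf libraries (horizontal, log2 axis) for the 19066 genes tested; each point is a gene, brown if called higher in stem (2862), green if called higher in leaf (2357), grey otherwise. Row 93 lies farthest below the diagonal, at 2.03 FPKM in stem and 1053 in leaf, and row 2078 farthest above, at 239.8 and 0.738.

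Which tissue held more of the calls depended on the scaling, while no single call changed direction with median-ratio scaling. On the scale of the test, the median gene was 0.15 higher in stem than in leaf. With the values divided by median-ratio factors, which take the median gene as unchanged, the median difference was -0.0073. Under that scaling 2253 genes were called higher in stem and 2767 higher in leaf, so stem took 44.9% of the calls in place of 54.8%. After quantile normalization its share was 49.0%, with 2471 and 2572 genes. Of the 5219 calls, 4610 were called the same way with median-ratio scaling and 0 the other way. The count of genes in each direction is therefore given relative to the read total of a library, and which scaling is right was not tested.

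**Figure D2:**
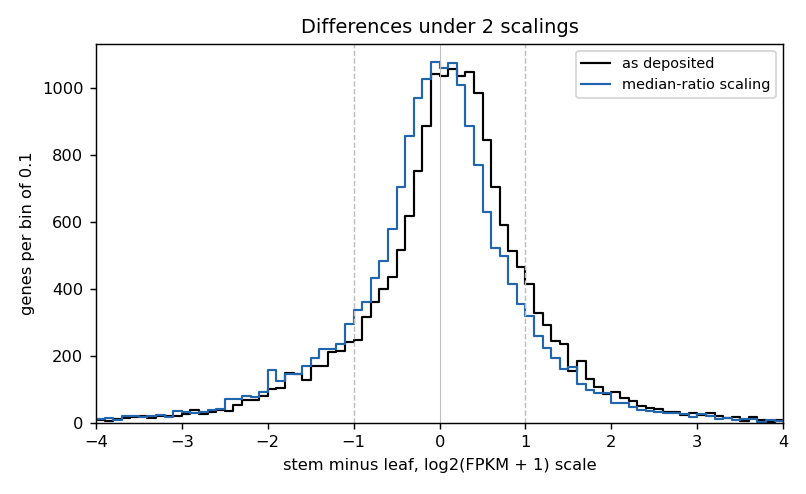
Number of genes per bin of 0.1 (vertical) by stem minus leaf difference on the log2(FPKM + 1) scale (horizontal, drawn from -4 to 4) for the values as deposited (black) and after median-ratio scaling (blue); dashed lines mark differences of 1 and -1. The black curve has its median at 0.15 and the blue one at -0.0073, which moves 2862 calls above the upper line to 2253 and 2357 calls below the lower line to 2767.

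The 10 leading genes of stem were at 92.6 FPKM or more in every stem library and at 11.5 or less in every leaf library. Row 2078 (1287 bases) was at 242.8, 237.6 and 238.9 FPKM in the stem libraries and 0.879, 0.740 and 0.594 in the leaf libraries. Its leaf values rest on 35, 30 and 24 reads against 8850 or more in each stem library. It was higher in stem by 7.12 (SE 0.0701, limma adjusted p = 6.3e-11). Row 7347 (606 bases) followed, at 260.2, 267.7 and 266.9 FPKM in stem and 1.49, 1.31 and 1.79 in leaf, and differed by 6.72 (SE 0.0726, limma adjusted p = 1.0e-10). Both genes varied little between the stem replicates, and their lack of overlap was fixed by how the leading genes were chosen.

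The most abundant of the 10 was row 23698 (562 bases), at 605.9, 585.0 and 585.0 FPKM in stem and 5.58, 4.18 and 5.72 in leaf, a difference of 6.60 (SE 0.0933). Row 607 (1974 bases) was at 391.0, 396.9 and 398.3 FPKM in stem and 2.90, 3.28 and 4.26 in leaf. Row 32620 (1893 bases) was at 111.0, 109.5 and 109.5 FPKM in stem and 0.342, 0.553 and 0.404 in leaf. All 3 were also abundant in root, with means of 931.7 ± 26.8 FPKM (SD, n = 3) for row 23698, 346.1 ± 3.21 for row 607 and 219.0 ± 3.17 for row 32620. In flower the mean of row 23698 was 2.10 ± 0.812 FPKM. The flower libraries were at 0.233, 0 and 0 FPKM for row 607 and 0.191, 0 and 0 for row 32620, so both had reads in flower replicate 1 alone.

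Row 17614 (2247 bases) and row 20837 (775 bases) were likewise abundant in root and low in flower. In stem, row 17614 was at 96.8, 100.4 and 97.1 FPKM and row 20837 at 272.1, 256.6 and 247.7. In leaf, row 17614 was at 0.777, 1.22 and 1.03 FPKM and row 20837 at 4.38, 5.90 and 3.33. Both were higher still in root, with means of 210.1 ± 2.40 and 461.4 ± 9.88 FPKM (SD, n = 3). In flower they were at 0.161, 0 and 0.0146 FPKM and at 0.594, 0.0439 and 0, highest in replicate 1. Row 30652 (802 bases), with 92.6, 97.8 and 94.98 FPKM in stem and 0.806, 0.435 and 0.834 in leaf, had means of 166.2 ± 5.59 in root and 46.8 ± 4.77 in flower.

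The last 4 of the 10 were lower in root than in stem, as was row 607. Row 2475 (489 bases) was at 567.7, 564.1 and 551.7 FPKM in stem and 11.5, 7.47 and 10.2 in leaf. Its highest level was in flower, at 1704, 3094 and 3343 FPKM, against 59.2 ± 5.55 FPKM (SD, n = 3) in root. Row 2811 (951 bases) was at 263.6, 293.9 and 298.9 FPKM in stem and 5.27, 3.81 and 5.29 in leaf, and was higher in stem by 5.64 (SE 0.108, limma adjusted p = 1.9e-09). Root, at 15.4 ± 2.41 FPKM, and flower, at 9.30 ± 0.322, were both low for row 2811. For row 2078 root was at 4.61 ± 0.280 FPKM and the flower libraries at 10.3, 2.20 and 3.21, with replicate 1 the highest. Row 7347 was at 60.6 ± 6.44 FPKM in root and 0.492 ± 0.156 in flower.

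The 10 leading genes of leaf spanned a wider range of levels. Row 93 (2426 bases) was at 1048, 1062 and 1050 FPKM in the leaf libraries and 2.13, 2.04 and 1.92 in the stem libraries. Its stem minus leaf difference was -8.44 (SE 0.0391, limma adjusted p = 2.5e-12), and its leaf mean was 519-fold its stem mean. Row 28435 (1314 bases) was at 685.6, 672.3 and 696.3 FPKM in leaf and 1.18, 1.45 and 0.921 in stem. Row 4758 (1274 bases) was at 1007, 993.6 and 1017 FPKM in leaf and 1.88, 3.28 and 2.57 in stem. On the log2(FPKM + 1) scale, for these 3 genes, differences of -8.44, -8.30 and -8.16 exceeded all of those on the stem side in size.

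Row 9663 (546 bases) was the most abundant of them, at 3469, 3246 and 3480 FPKM in leaf and 25.03, 26.9 and 27.3 in stem. The next row, 9664, has the same length and was at 432.6, 435.4 and 453.6 FPKM in leaf and 0.839, 0.380 and 1.14 in stem, where it had 6 to 19 reads. Row 31089 (1449 bases) was at 446.1, 451.1 and 440.5 FPKM in leaf and 2.87, 1.74 and 2.19 in stem. The leaf libraries of each gene agreed closely, while the stem values of row 9664 varied.

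Row 30761 (2846 bases) was at 266.2, 272.7 and 262.5 FPKM in leaf and 2.04, 2.14 and 1.78 in stem. Row 20301 (1200 bases) was at 176.6, 181.0 and 178.4 FPKM in leaf and 1.38, 1.93 and 1.77 in stem. Row 14948 (1236 bases) was at 123.8, 117.1 and 123.1 FPKM in leaf and 1.14, 1.01 and 1.08 in stem. All 3 kept a low but measurable level in every stem library, from 36 reads upwards. Row 24869 (653 bases) did not: it was at 90.9, 89.0 and 84.9 FPKM in leaf, with 1741 to 1835 reads per library, and stem held 0, 1 and 1 reads, for a difference of -6.43 (SE 0.0728). With so few reads in stem this value follows the pseudocount: it was -9.39 with a pseudocount of 0.1 and -10.66 with voom on the recovered reads, against -8.95 and -9.02 for row 93.

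**Figure D3:**
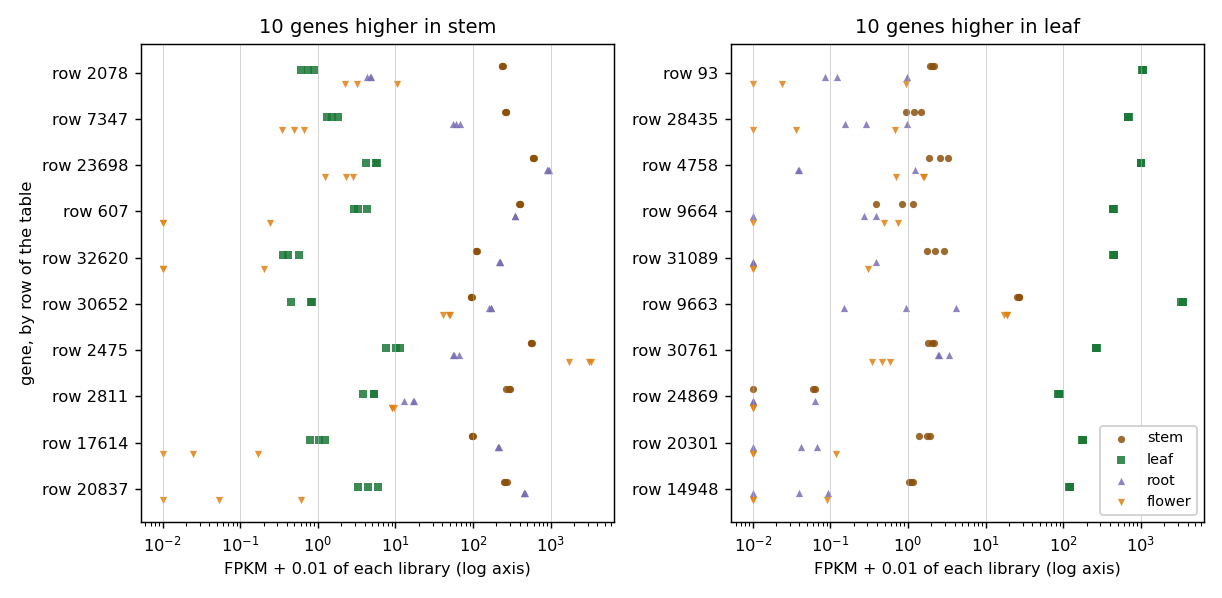
FPKM + 0.01 (horizontal, log axis) of every library for the 10 genes with the largest difference in each direction; each point is a library, brown circles stem, green squares leaf, purple triangles root, orange inverted triangles flower. Stem and leaf points are far apart in all 20 genes; for 7 of the 10 stem genes root was called higher than flower, and for 8 of the 10 leaf genes root and flower were not called different. Genes with means under 1 FPKM in both root and flower could not reach the size threshold.

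The leaf genes were low in root and flower as well. Over the 10 genes, root means ran from 0.0175 to 2.76 FPKM and flower means from 0 to 18.4, the latter for row 9663. Root replicate 3 was the highest root library for all 10 genes and flower replicate 1 the highest flower library for 9 of them. Without these 2 libraries the root means ran from 0 to 2.45 FPKM and the flower means from 0 to 18.0. Over the 10 stem genes, root means ran from 4.61 to 931.7 FPKM, and 4 of the 10 had their highest root value in replicate 3. Flower replicate 1 was the highest flower library for 7 of the 10 stem genes.

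Leaf drew a larger part of its expression from few genes. The 100 highest genes held 24.0%, 23.8% and 24.1% of all FPKM in the leaf libraries and 16.8%, 17.0% and 16.7% in the stem libraries. The stem mean was lower by 7.16 percentage points, and the libraries did not overlap (two-sided exact permutation p = 0.1, the smallest that 3 against 3 libraries can give). For the 10 highest genes the means were 8.02% ± 0.107 (SD, n = 3) in leaf and 4.47% ± 0.174 in stem. For the 500 highest they were 42.3% ± 0.133 and 35.8% ± 0.0722. By reads in place of FPKM, the 100 highest genes held 22.4% in leaf and 15.2% in stem.

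A pair of genes stood far above the others in leaf. Row 29089 (1057 bases) was at 17063, 16598 and 16644 FPKM in leaf, 2.13% of the total, and at 2021, 1984 and 1997 in stem. Row 20605 (842 bases) was at 14518, 14381 and 14580 FPKM in leaf, 1.84% of the total, and at 961.2, 961.7 and 958.9 in stem. Both were called higher in leaf, with stem minus leaf differences of -3.07 (SE 0.0127) and -3.91 (SE 0.00886). Even so, their stem means were 2001 ± 18.8 and 960.6 ± 1.48 FPKM (SD, n = 3). In root, row 29089 was at 5.71, 6.90 and 29.9 FPKM and row 20605 at 2.31, 2.54 and 19.3, and replicate 3 was the highest for both.

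Row 4714 (808 bases) and row 19556 (2119 bases) completed the abundant genes that were higher in leaf. Row 4714 was at 4623, 4626 and 4640 FPKM in leaf and 882.2, 824.9 and 870.4 in stem. Row 19556 was at 4377, 4408 and 4413 FPKM in leaf and 242.4, 239.1 and 239.4 in stem. By the difference in mean FPKM, these genes and row 9663 followed rows 29089 and 20605.

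The most abundant gene of stem by FPKM was also abundant in leaf. Row 26099 (158 bases) was at 7784, 10130 and 7657 FPKM in stem and 4606, 4070 and 5233 in leaf. The libraries did not overlap, and the difference of 0.87 (SE 0.121, limma adjusted p = 2.5e-04) passed the adjusted p but not the size threshold. It was called after quantile normalization, at 1.62. Its replicates spread more than those of the other abundant genes, with an SD of 1393 FPKM in stem against 75.4 for row 5282. By reads, row 26099 was not the highest, with 34917, 46325 and 36977 in the stem libraries against 67418, 69370 and 72125 for row 2393. Its rank by FPKM thus rests on its short length.

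The other abundant genes of stem were called higher there. Row 5282 (183 bases) was at 4311, 4450 and 4430 FPKM in stem and 1916, 1859 and 1896 in leaf, and row 17054 (150 bases) at 3912, 4009 and 3907 in stem and 1588, 1604 and 1532 in leaf. The difference of row 5282 was 1.22, and 2.24 after quantile normalization. Row 2393 (708 bases) was at 3354, 3385 and 3333 FPKM in stem and 625.4, 622.6 and 619.3 in leaf, a difference of 2.43 (SE 0.0118). Row 5500 (1125 bases) was at 2883, 2803 and 2836 FPKM in stem and 563.7, 552.3 and 565.7 in leaf. In leaf each of these stayed at 552.3 FPKM or more. Row 18674 (1007 bases) was the exception among genes with the largest FPKM difference, at 2143, 2093 and 2113 FPKM in stem and 83.9, 82.6 and 85.9 in leaf, and was higher in stem by 4.64 (SE 0.0207, limma adjusted p = 2.2e-12).

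The called genes made up a large part of the expression of their own tissue. Genes called higher in leaf held 37.7%, 37.5% and 37.6% of all FPKM in the leaf libraries and 8.81% to 8.91% in the stem libraries. Genes called higher in stem held 29.6% in each stem library and 8.95% to 8.99% in the leaf libraries. These shares describe genes that had been picked by the same difference, and no test was made of them.

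Abundant genes were called more often than others by the main rule, which understates the change of low genes. The classes were not recomputed with another pseudocount or scaling. Among the 59 genes with a mean of 1000 FPKM or more over the 6 libraries, 72.9% were called, 28 higher in leaf and 15 higher in stem. Between 100 and 1000 FPKM 43.3% of 1415 genes were called, with 306 in each direction. From 5 to 20 FPKM 23.5% of 7364 genes were called, 999 higher in stem and 731 higher in leaf, and under 2 FPKM 26.3% of 1509 genes. The median difference moved with the level, from -0.028 under 2 FPKM to 0.37 between 100 and 1000 FPKM, and was -0.69 at 1000 or more. The median SE fell from 0.156 to 0.0146 over the same classes.

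**Figure D4:**
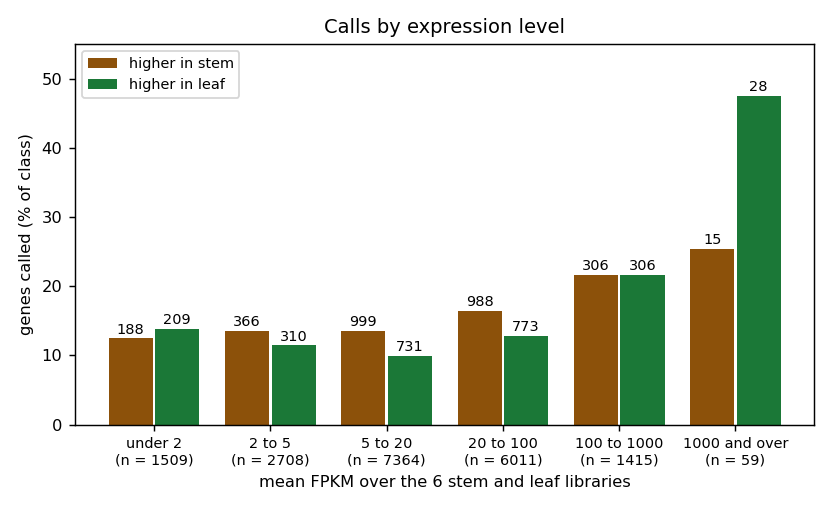
Percentage of genes called higher in stem (brown) and higher in leaf (green) within classes of mean FPKM over the 6 libraries (horizontal); each bar carries its number of genes and n is the number tested in the class. By the values as deposited, leaf leads under 2 FPKM, with 209 genes against 188, and stem leads from 2 to 100 FPKM. The tissues are level at 306 genes each from 100 to 1000 FPKM, and leaf leads at 1000 FPKM and over, with 28 genes against 15.

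Abundant genes of like level in both tissues, by the values as deposited, were found among the 917 genes with a mean of at least 100 FPKM in both. Row 6008 (816 bases) was at 168.9, 173.3 and 180.8 FPKM in stem and 168.6, 179.3 and 174.6 in leaf, a difference of 0.0012 (SE 0.0348). Row 10868 (2235 bases) was at 137.7, 141.7 and 139.2 FPKM in stem and 139.7, 139.4 and 140.0 in leaf. For row 32991 (1340 bases) and row 24845 (1438 bases) the means were 147.1 ± 3.77 and 134.2 ± 3.13 FPKM (SD, n = 3) in stem and 146.8 ± 3.61 and 134.7 ± 1.96 in leaf. The libraries of the tissues overlapped in all 4 genes. They had been chosen for the smallest difference as deposited, so no test was made of it. After median-ratio scaling their stem minus leaf differences ran from -0.18 to -0.19. Division by median-ratio factors of 1.07 in stem and 0.944 to 0.948 in leaf shifts all abundant genes by nearly the same amount. These differences and their direction therefore follow from how the genes were chosen, and no test of them is given.

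Slightly fewer genes were detected in stem. At 1 FPKM or more, 18499, 18509 and 18481 genes were detected in the stem libraries and 18573, 18552 and 18574 in the leaf libraries, a difference of 70 genes in the means (two-sided exact permutation p = 0.1, the smallest possible). The difference of stem minus leaf was -133.3 genes at 0.1 FPKM or more and -300 at 1 FPKM after median-ratio scaling. The order turned at 5 FPKM, where 14486 ± 24.99 genes (SD, n = 3) were detected in stem and 14324 ± 17.1 in leaf. The deeper libraries were those of leaf, and the part of depth in the result at 1 FPKM was not tested.

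Reads in a single one of the 2 tissues were rare. With at least 10 reads in each library of one tissue and none in the other, 22 genes were read in stem but not in leaf and 59 in leaf but not in stem. Of these, 11 and 34 had passed the FPKM rule, and the median level was 1.37 FPKM in stem and 1.53 in leaf. The highest mean was 10.2 FPKM in stem and 12.4 in leaf. Those farthest above the floor set by a count of 0, picked after their values were seen, were row 26230 (1920 bases) in stem, at 10.5, 10.5 and 9.58 FPKM, and row 21747 (1938 bases) in leaf, at 10.8, 9.04 and 10.05. A count of 0 allows up to 3 reads over the 3 libraries of the other tissue, a bound that covers counting error only. On that floor, row 26230 was at least 614-fold higher in stem and row 21747 at least 566-fold higher in leaf.

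Genes higher in stem and genes higher in leaf differed in how root and flower compared, organs that share no library with stem or leaf. Over all 19066 genes, limma called 40.5% higher in root than in flower and 14.7% higher in flower than in root. Among the 2862 genes higher in stem, 1678 (58.6%) were higher in root and 344 (12.02%) in flower. Among the 2357 genes higher in leaf, 471 (19.98%) were higher in root and 783 (33.2%) in flower. The 13847 genes that were not called stood close to the whole, at 40.3% and 12.1%. With median-ratio scaling of the root and flower values, the shares over all genes were 27.9% higher in root and 24.0% higher in flower. The stem and leaf groups were kept as called on the values as deposited. In these groups the shares were then 47.9% and 19.3% among genes higher in stem, and 13.4% and 41.0% among genes higher in leaf.

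Among genes higher in stem, the share higher in root than in flower grew with the size of the difference. Among genes higher in leaf that share fell, and the share higher in flower was 8.82% in the class of 5 or more. Of the 187 genes higher in stem by 3 to 5, 144 (77.0%) were higher in root than in flower, as were 14 of the 17 with a difference of 5 or more. Of the 223 genes higher in leaf by 3 to 5, 83 (37.2%) were higher in flower and 16 (7.17%) in root. At 5 or more, 3 of the 34 leaf genes were higher in flower, 1 was higher in root and 30 were called in neither direction. By the size threshold, a gene with means under 1 FPKM in both root and flower could not be called. The median level of the 34 leaf genes was 99.4 FPKM in leaf, 1.05 in stem, 0.125 in root and 0.177 in flower. The 17 stem genes, in turn, had a median of 110.0 FPKM in stem, 1.01 in leaf, 105.9 in root and 0.227 in flower.

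**Figure D5:**
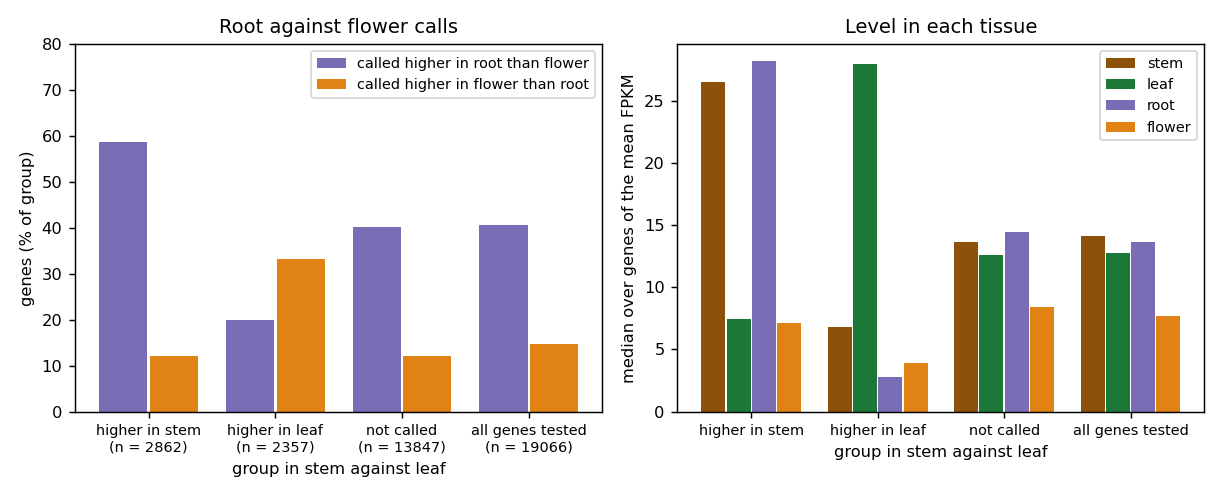
Left, percentage of genes called higher in root than flower (purple) and higher in flower than root (orange) by group in the stem and leaf comparison, with n genes per group; right, the median over genes of the mean FPKM in each tissue for the same groups. Genes higher in stem had 58.6% higher in root, against 19.98% for genes higher in leaf, and a median of 28.2 FPKM in root, against 2.77.

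Levels in root and flower also differed between the groups. Genes higher in stem had medians of 26.5 FPKM in stem, 7.46 in leaf, 28.2 in root and 7.13 in flower. Genes higher in leaf had medians of 28.0 FPKM in leaf, 6.81 in stem, 2.77 in root and 3.898 in flower. Under 1 FPKM in root on average were 815 of the genes higher in leaf (34.6%) and 160 of those higher in stem (5.59%), against 8.37% of all genes tested. In flower the shares under 1 FPKM were 33.3% and 27.3%, against 20.7% of all.

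Gene length differed little between the groups. The median length implied by the values was 1293 bases for genes higher in stem, 1276 for genes higher in leaf and 1374 for all genes tested. Genes of the largest differences were shorter, with a median of 951 bases for the 17 stem genes and 1105 for the 34 leaf genes with a difference of 5 or more.

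Neighbouring rows of the table were called in the same direction more often than the share of all genes called, with no test made. The sources used here do not say what orders the rows. Of 12871 pairs of adjacent rows with both genes tested, 407 were both higher in stem, 257 both higher in leaf and 454 one of each. When the first gene of a pair was higher in stem, the second was so in 21.1% of 1929 pairs, against 15% of all genes. When the first was higher in leaf, the second was so in 16.5% of 1561 pairs, against 12.4%. Runs of 4 or more rows called in one direction numbered 10 for stem and 8 for leaf, the longest being 2 runs of 5 rows for leaf.

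Some of these runs held genes of equal length, picked here after their values were seen. Rows 9663, 9664 and 9665 are each 546 bases long. Row 9665 was at 2306, 2274 and 2311 FPKM in leaf and 43.4, 44.2 and 43.6 in stem, a difference of -5.68 (SE 0.0188), beside -6.96 for row 9663 and -7.97 for row 9664. Row 9666 (1005 bases) ended the run with a smaller difference of -1.04, at 48.3 ± 2.85 FPKM (SD, n = 3) in leaf and 23.0 ± 1.83 in stem. If such rows are near-identical copies, the division of their shared reads is uncertain, since the counting rule for these is not stated.

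Rows 5190 to 5193 (2067 to 2397 bases) formed another run on the leaf side. Their leaf means were 12.2, 4.02, 12.2 and 30.1 FPKM and their stem means 1.73, 0.237, 1.62 and 0.240. Rows 8965 and 8966, both 1936 bases long, had no reads in any stem library and means of 3.98 ± 0.449 and 1.71 ± 0.349 FPKM (SD, n = 3) in leaf. On the stem side, rows 17522 to 17525 had stem means of 127.0, 14.6, 5.56 and 1774 FPKM and leaf means of 13.8, 0.160, 2.04 and 641.1. Levels differed widely within these runs, whose shared direction was fixed by how they were picked.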

How the data were processed

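The deposited values are FPKM made by the authors, per the file name. Tools listed in the submitters' processing notes are HTSeq, HISAT2, fastp and R 3.2.0, and their use is not described. The sources used here give no genome build, annotation or strand setting. RNA was isolated with TRIzol for VAHTS Universal V6 libraries, per the labels' protocols. The table holds 12 columns, each matched to a library by its title, and no gene identifiers, so marker lists were not analysed.

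Whole reads, totals and lengths were recovered from the steps of the FPKM values. The length is the smallest number of bases that gave whole reads within 0.01 in every library, so it can be too short for rows with few reads. All 26625 rows above 0 gave whole reads, which summed to 99.99% or more of the totals. The totals had been chosen, among multiples of the step found, as those nearest to this sum. Replicate variance was 3.71 to 3.9 times the counting variance over the 6 replicate pairs, so no library was a repeat of another within sampling noise. Of 96 rows identical to another in all libraries, 0 were tested.

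limma 3.58.1 in R 4.3.3, with a mean-variance trend, was fitted to log2(FPKM + 1) of the 6 libraries (4 residual degrees of freedom) and adjusted over all 19066 genes. Root against flower was fitted likewise. Exact permutation tests used scipy 1.17.1. The fit was tested on simulated data. Named genes are the 10 with the largest difference in each direction among called genes without overlap, the 5 most abundant of each tissue, the 5 with the largest FPKM difference each way, 4 abundant genes of equal level and 1 on each side of the filter; others are said to be picked later. The genes, groups and rules were chosen with earlier results of these data known. Replicate numbers were not shown to pair the libraries, and the main fit used no pairing.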

Additional observations from a re-analysis of the deposited data

How the results depend on the processing

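The counts of called genes were within 1.5 times their value under the other pseudocounts, filters, scalings and fits and with any library left out. They moved with the size threshold. With a difference of at least 2, 685 genes were higher in stem and 721 in leaf, and with no minimum difference 8642 and 5524. A fit of voom to the recovered reads, which has no pseudocount of 1, called 3383 and 2762. With one library left out, calls ran from 2865 to 2892 in stem and 2349 to 2374 in leaf, and 4750 of the 5219 calls (91.0%) were made in all 6 such fits. Over 15 settings on the same genes, 4396 (84.2%) were called the same way in each. The 29 named genes that were called kept their call in all 464 alternative values, but they had been picked as strong or abundant.

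The number of genes detected was higher in stem at 5 FPKM, by 162.7 genes, in place of lower by 70. Among genes higher in stem as deposited, those higher in flower than root rose from 344 to 553 with root and flower median-ratio scaled. Over all genes tested they rose as well, from 2803 to 4582, so the rise was not particular to genes higher in stem. With that scaling the share higher in flower was 19.3% among genes higher in stem, still below the 24.0% of all genes tested. With the replicate number as a replicate block, 2862 and 2357 genes were called, as without it. Deviations of stem and leaf libraries of the same number correlated at 0.0066, 0.018 and 0.031, under the 0.1 taken to show pairing, though each library correlated best with its own number. Low genes were the least precise by class, with a median SE of 0.156 under 2 FPKM against 0.0146 at 1000 FPKM or more, and the part of depth in this was not tested.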

Other observations

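Root replicate 3 and flower replicate 1 were the highest library of their tissue for more genes than their replicates were, over all genes called higher in stem and over all called higher in leaf. Root replicate 3 was the highest root library for 40.7% of the 2357 genes higher in leaf and 34.5% of the 2862 genes higher in stem. For flower replicate 1 the shares were 43.1% and 36.4%. On the stem side root replicate 3 led by little, since the other root libraries were the highest for 32.1% and 32.9% of the genes. The shares over all genes tested are not given here. Among genes with a difference of 5 or more, flower replicate 1 was the highest for 20 of the 34 leaf genes and 11 of the 17 stem genes, and root replicate 3 for 21 of the 34 and 6 of the 17, as many as root replicate 1 for the latter. Summed FPKM did not always follow. Over the 34 leaf genes it was 22.5 in root replicate 3, against 11.7 and 11.3 in the other root libraries, and 107.9 in flower replicate 1, against 99.1 and 92.9. Over all 2357 leaf genes flower replicate 1 had the lowest sum, 92386 against 95279 and 94975. Over all 2862 stem genes root replicate 3 had the lowest root sum, 242547 against 242880 and 243585. Flower replicate 1 had the lowest flower sum over these stem genes, 136633 against 146334 and 145963. These libraries do not enter the stem and leaf fit.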
